A study of Rattus norvegicus with 252 samples.

Results

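The change of hippocampal gene expression between 2 and 6 months was followed in 20 of the 252 RNA sequencing samples of the series, those titled as Q130 KI hippocampus at 6 months (10 rats) or at 2 months (10 rats). All 20 came from the right hippocampus of Long Evans rats heterozygous for the Q130 knock-in (KI), an allele of the Huntington disease model that carries a lengthened glutamine-coding repeat. Each age had 5 females and 5 males. Each sample was a separate rat, and the 2 ages were different rats, so the comparison is across animals and not within them. Both ages share the knock-in and are labelled batch 1. Wild type (WT) rats, 10 at 6 months and 10 at 2 months, served for comparison, and samples at 12 months, which belong to batch 2, are given as values. No treatment is stated in the labels.

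The hippocampus forms new spatial and episodic memories through a circuit of dentate granule cells and pyramidal neurons, and its dentate gyrus goes on producing neurons after birth at a rate that declines with age. Between young and mature adulthood the rodent brain also goes on adding myelin. Huntington disease damages the striatum first, and memory circuits of the hippocampus are affected in patients and in several rodent models. None of the 32883 gene identifiers of the files was paired with a gene symbol in the tables at hand (0 matched), so genes of these processes, and the targeted gene, were not identified and are not analysed here. The genes are described by their number, direction, level, length, tissue distribution and behaviour in WT rats.

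The total count of a library was between 31.5 and 43.7 M. Medians were 35.6 M at 6 months and 34.7 M at 2 months, and 18455 to 18849 genes had at least 1 count. The measures used to see whether each library matched its label were its median correlation with the other hippocampal libraries of the series, on log2 values of CPM (counts scaled to the size of the library), and the mean level of genes enriched in a tissue. Of 60 hippocampal libraries, 2 had a median correlation under 0.97, and both were of male Q130 rats at 6 months: M5 (0.929) and M3 (0.960). The nearest library above the threshold was F5 of the Q130 rats at 2 months (0.971). The comparison of the ages, the interaction tests and the named genes are therefore given with all 20 libraries and without M3 and M5, and the other descriptions of called genes are without them unless stated. Leaving them out leaves 8 libraries at 6 months (5 females, 3 males) against 10 at 2 months.

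The library labelled M5 at 6 months held striatal rather than hippocampal levels of tissue-enriched genes. Enrichment was judged on the WT libraries of 2 months: the mean of a gene had to stand 2 log2 units or more over that of each other tissue, and above 0 log2 CPM. Its mean over hippocampus-enriched genes was -0.61 log2 CPM, against 3.08 to 3.21 in the 8 libraries kept at 6 months. Its mean over striatum-enriched genes was 4.19 log2 CPM, against 0.52 to 0.89 in those 8 libraries and 4.25 to 4.41 in WT striatum at 6 months. Its median correlation was 0.933 with hippocampal and 0.982 with striatal libraries. The library of the same rat that is labelled striatum went the other way, with 0.986 against hippocampal and 0.938 against striatal libraries, while its cortex and cerebellum libraries correlated best with their own tissues (0.987 and 0.988). The labels were kept as given, and no library was moved to another tissue.

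Library M3 at 6 months stood apart in another manner. Its highest correlation was with the hippocampus (0.962), and its striatum-enriched mean of 0.80 log2 CPM lay inside the range of the kept libraries. Its hippocampus-enriched mean of 2.92 log2 CPM lay below the 8 kept libraries at 6 months (3.08 to 3.21) and below the 10 libraries at 2 months (3.05 to 3.32). Across genes, its deviation from the average hippocampal library fell with transcript length, with a Spearman rho of -0.42, and this rho was the lowest of the 20 libraries. F5 at 2 months had a rho of -0.38 and M3 of the WT rats at 6 months had -0.40. The part of length-related RNA differences in the comparison of ages was not tested beyond leaving libraries out.

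**Figure D1:**
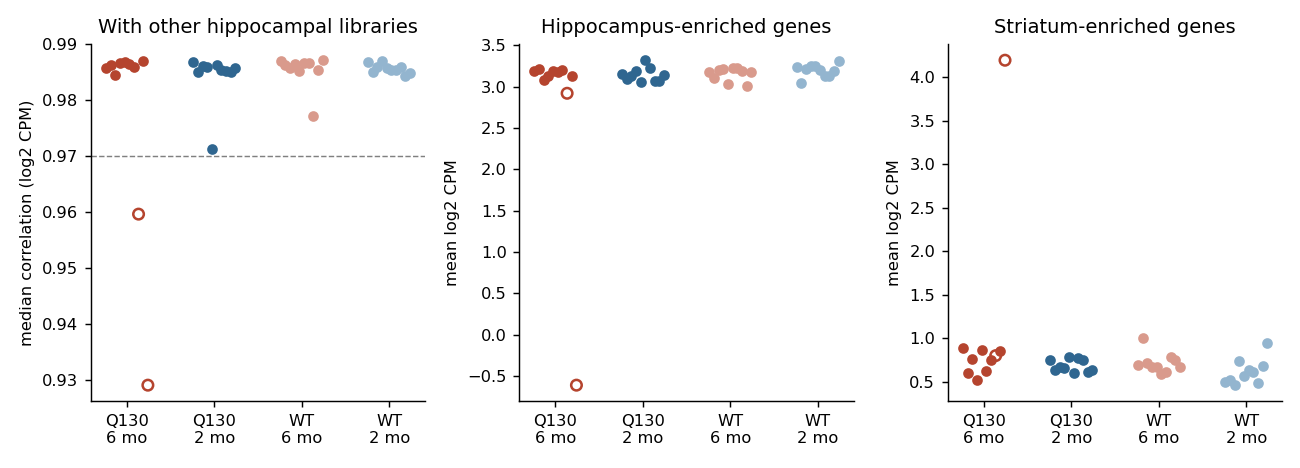
Each point is 1 hippocampal library of a Q130 or WT rat at 2 or 6 months, and open symbols mark the 2 libraries under the dashed line at 0.97. The panels show the median correlation with other hippocampal libraries and the mean log2 CPM of hippocampus-enriched and striatum-enriched genes; M5 of the Q130 rats at 6 months lies at 0.929, -0.61 and 4.19, away from all others.

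Hippocampal expression differed between 6 and 2 months in Q130 rats by changes that were mostly smaller than 1.5-fold. Without M3 and M5, 673 of 15839 genes passed edgeR's quasi-likelihood test with sex as a covariate and a Benjamini-Hochberg adjusted p under 0.05, which is 4.25% of the genes tested. Of these, 289 were higher at 6 months (1.82% of the genes tested), and their median change was 0.33 on the log2 scale. The other 384 were lower (2.42%), and their median was -0.30. More than 1.5-fold changes were seen in 66 of the higher and 74 of the lower genes, and more than 2-fold changes in 18 of each. Log2 fold changes of called genes ran from -1.87 to 2.30, and 2731 genes had an unadjusted p under 0.05 (17.2%). In bulk tissue, fewer cells of a type and less RNA per cell cannot be told apart.

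With all 20 libraries, 159 of 15718 genes were called (1.01%), 95 higher (0.604%) and 64 lower (0.407%) at 6 months. The biological coefficient of variation, which measures the typical spread between libraries of a group, was 0.199 over all 20 libraries and 0.119 over the 18. The 20 include M5, with its striatal levels of tissue-enriched genes. Called genes had a median absolute log2 change of 0.51 with all libraries and 0.31 without M3 and M5. Both fits shared 158 called genes, all with the same sign, and 666 of the 673 genes kept their sign when the 2 libraries were put back. The count without M3 and M5 also rested in part on other libraries. It became 1194 when F5 at 2 months was left out as well, and 435 without M4 at 6 months.

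**Figure D2:**
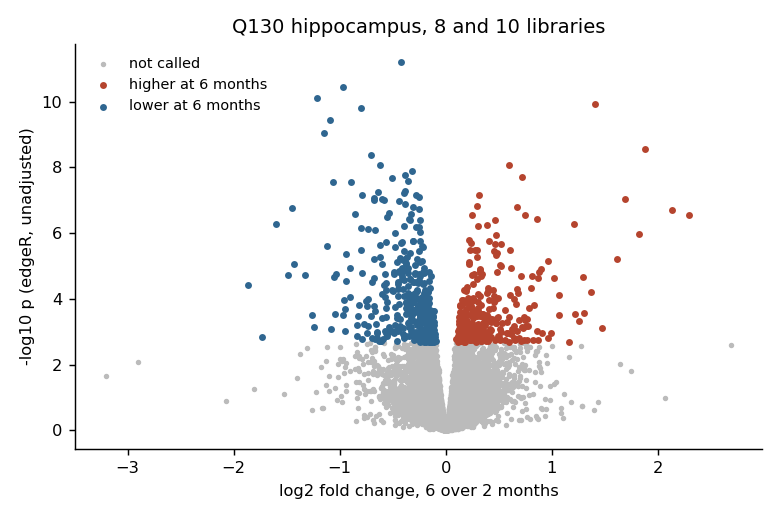
Each point is 1 of 15839 genes, with its log2 fold change, 6 over 2 months, on the horizontal axis and the unadjusted -log10 p of edgeR on the vertical axis, from 8 and 10 libraries. Coloured points are the 289 genes called higher and the 384 called lower at an adjusted p under 0.05; most lie within 1 log2 unit of 0.

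For most called genes the ranges of the ages overlapped. The 8 libraries at 6 months lay wholly above the 10 at 2 months for 37 of the 15839 genes and wholly below for 85. Of the called genes this held for 34 of the 289 higher and 83 of the 384 lower.

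Called genes were found at all levels of expression. Among 1866 genes with a mean under 1 CPM, 23 were higher and 30 lower. Between 1 and 10 CPM these numbers were 105 and 93 of 4175 genes, and between 10 and 100 CPM they were 131 and 195 of 7710. Among the 2088 genes over 100 CPM, 30 were higher (1.44%) and 66 were lower (3.16%). The size of the change that passed the test went down with level, with a median absolute log2 change of 0.95 under 1 CPM and 0.18 over 100 CPM. In the most abundant genes, more were called lower than higher at 6 months, and their changes were small.

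The genes named here are the highest and lowest by log2 fold change among called genes with a mean of at least 1 CPM and the same sign in both fits, of which 266 were higher and 347 lower; the first pair of each direction is given by identifier, since no name or role can be attached. The top gene was ENSRNOG00000015159, whose lowest, median and highest levels were 1.20, 6.73 and 11.6 CPM at 6 months, against 0.544, 1.43 and 2.13 CPM at 2 months. Only F4 among the 8 libraries at 6 months lay inside the range of the 2-month libraries, and the other 7 were above it. Its log2 fold change was 2.30 ± 0.29 (SE; edgeR adjusted p = 0.000103) without M3 and M5, and 2.40 with all libraries (edgeR adjusted p = 0.00031). The fit with all libraries includes M3 at 6.16 CPM and M5 at 18.0 CPM, the highest level of this gene in the 6-month group. With counts scaled across tissues, M5 had 18.1 CPM, and 6 Q130 striatum libraries at 6 months had between 1.80 and 26.3 CPM. Per transcript length its medians were 2.45 TPM at 6 months and 0.544 TPM at 2 months.

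The rat of F4 had low values in its other tissues too. With counts scaled across tissues, ENSRNOG00000015159 had 1.20 CPM in its hippocampus, 1.75 CPM in its cortex and 1.80 CPM in its striatum, the lowest value of each tissue among the Q130 rats of 6 months. In its cerebellum the gene had 11.4 CPM, also the lowest of the 10 Q130 rats at 6 months, with the next at 11.6 CPM, and below the 8 cerebellar libraries used at 2 months (13.1 to 15.5 CPM). The cerebellar medians of Q130 rats were 16.7 CPM at 6 months and 13.6 CPM at 2 months, and the change there did not pass the test (log2 0.17 ± 0.08 SE, edgeR adjusted p = 0.182). In the cortex of Q130 rats the log2 change was 1.78, and in the striatum it was 3.14, both past the test.

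ENSRNOG00000031211 showed the cleanest separation of the 4 genes. Its lowest, median and highest levels were 3.62, 4.68 and 6.34 CPM at 6 months, against 0.659, 1.27 and 2.41 CPM at 2 months. The ranges did not overlap. Its log2 fold change was 1.88 ± 0.19 (SE; edgeR adjusted p = 5.59e-06). The 2 libraries left out had 3.13 CPM (M3) and 0.681 CPM (M5), and with them the log2 fold change was 1.69 (adjusted p = 0.00388). With counts scaled across tissues, 6 Q130 striatum libraries at 6 months had between 0.638 and 1.48 CPM, and the library labelled striatum of the same rat as M5 had 4.13 CPM. ENSRNOG00000031211 was also higher at 6 months in Q130 cortex (log2 1.55) and in Q130 striatum (log2 1.04, edgeR adjusted p = 0.025). In the cerebellum the estimate was -0.08 ± 0.17 (SE) and did not pass the test.

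The named gene with the lowest fold change, ENSRNOG00000061358, split the rats of 2 and 6 months rather than shifting all of them. Its lowest, median and highest levels were 0.193, 0.355 and 1.78 CPM at 6 months, against 0.234, 1.95 and 3.11 CPM at 2 months. The ranges overlapped almost fully: F1 and F4 at 6 months had 1.31 and 1.78 CPM, among the levels of the 2-month rats, and 1 rat at 2 months had the low level. Its log2 fold change was -1.73 ± 0.46 (SE; edgeR adjusted p = 0.0394), and -1.92 with all libraries (adjusted p = 0.0294). The call was lost in 16 of 28 alternative settings without M3 and M5, with adjusted p up to 0.48 when females were tested alone.

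The same split was found in the cerebellum of the same rats. Over the 40 Q130 and WT rats of 2 and 6 months, the hippocampal and cerebellar libraries of a rat lay on the same side of 1 CPM for ENSRNOG00000061358 in 40 of 40 rats. At these ages no hippocampal library had between 0.426 and 1.07 CPM, and no cerebellar library had between 0.114 and 2.44 CPM. Levels over 1 CPM were found in 2 of 10 Q130 rats at 6 months and 9 of 10 at 2 months, and in 4 of 10 WT rats at 6 months and 10 of 10 at 2 months. Because the level goes with the animal, the 10 rats of a group, and not their tissues, are the replicates of this change. The identifiers of the rats begin with a shared number for some of them (6 such numbers at each age), and none of these numbers occurs at both ages, so what they stand for and age cannot be told apart.

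ENSRNOG00000002265 had lowest, median and highest levels of 0.469, 0.621 and 1.03 CPM at 6 months, against 0.855, 1.89 and 2.85 CPM at 2 months. The highest rats at 6 months, F2 (1.03 CPM) and M1 (0.865 CPM), were just inside the range of the 2-month rats. The log2 fold change was -1.45 ± 0.19 (SE; edgeR adjusted p = 7.69e-05), and -1.41 with all libraries (adjusted p = 0.0183), where M3 (0.0933 CPM) and M5 (1.74 CPM) were the lowest and highest of the 6-month group. With counts scaled across tissues, M5 had 1.74 CPM, and 6 Q130 striatum libraries at 6 months had between 1.89 and 2.85 CPM. ENSRNOG00000002265 fell in every other tissue of the Q130 rats as well, with log2 changes of -1.82 in cortex, -1.38 in striatum and -1.84 in cerebellum, each past the test.

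**Figure D3:**
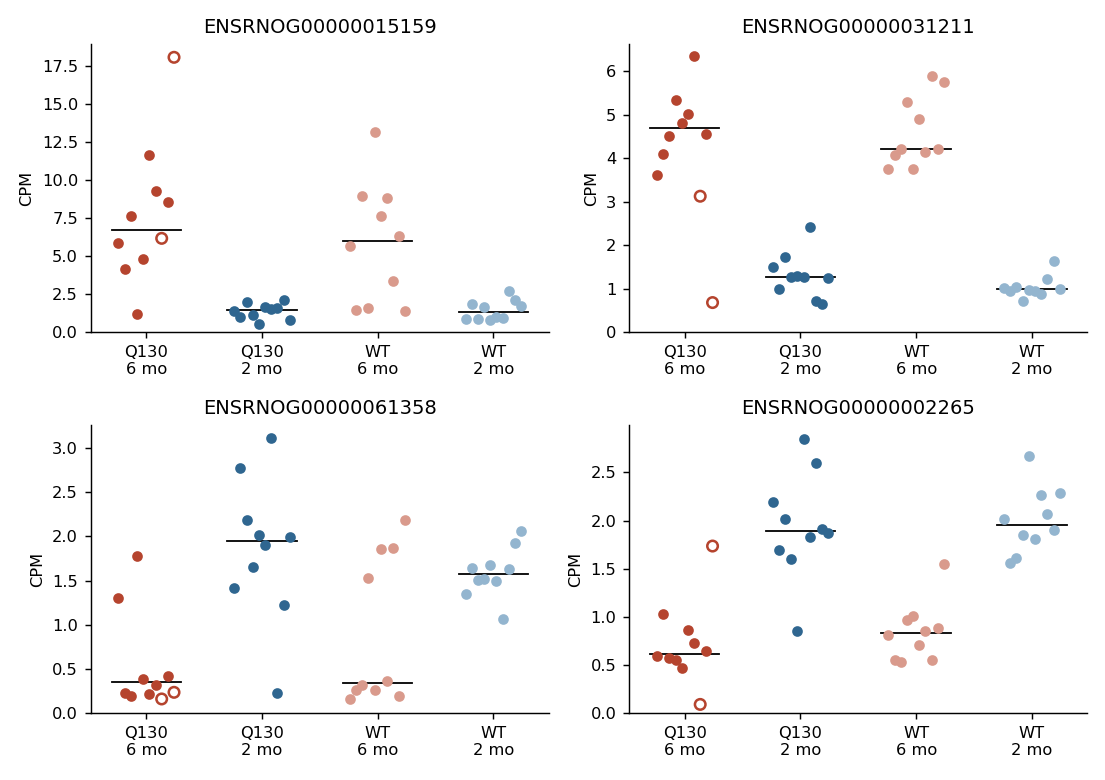
Levels in CPM of the 4 named genes in each hippocampal library of Q130 and WT rats at 2 and 6 months. Open symbols are M3 and M5 of the Q130 rats at 6 months and black lines are medians without them. The 6-month Q130 libraries other than M5 lie above all 2-month libraries for ENSRNOG00000031211, and fall into a low and a high set for ENSRNOG00000061358.

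The WT hippocampus gave the same comparison in rats without the knock-in and shares no library with it. In WT rats, 2679 of 15711 genes were called (17.1%), 1462 higher (9.31%) and 1217 lower (7.75%) at 6 months, with a biological coefficient of variation of 0.102. Of the genes tested in both genotypes, those called higher in Q130 rats had a WT median log2 change of 0.24, and 281 of 289 had the same sign and 175 were called in the same direction. Those called lower had a WT median of -0.22, with 376 of 384 of the same sign and 252 called. No gene was called in opposite directions. Over all 15657 genes tested in both, 60% had the same sign.

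The 427 genes called in the same direction in both genotypes were 63.4% of the Q130 calls and 16.0% of the WT calls. The 1461 genes called higher in WT had a median log2 change of 0.06 in Q130 and 0.17 in WT. The 1216 called lower in WT had medians of -0.10 in Q130 and -0.24 in WT. The estimates of genes chosen in one genotype are expected to be larger in that genotype, so these medians do not rank the genotypes. Genes called in Q130 and not in WT were 114 higher and 132 lower.

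Whether the change with age differed between genotypes was tested directly. The interaction of age and genotype passed for 0 of 16108 genes (0%) without M3 and M5, with 1554 at an unadjusted p under 0.05 (9.65%) and a smallest adjusted p of 0.340 in edgeR. With all libraries it passed for 0 of 15995 genes, with 636 unadjusted and a smallest adjusted p of 0.144. By limma-voom there were also 0 calls, with 1628 unadjusted without M3 and M5 and 539 with all libraries. Among the 673 called genes, 119 had an unadjusted interaction p under 0.05, and none passed adjustment over all genes. These genes were chosen by their change in the same Q130 libraries. A share above the 9.65% of all genes is therefore expected from the choice alone. No gene was therefore shown to change with age in Q130 rats differently from WT rats.

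**Figure D4:**
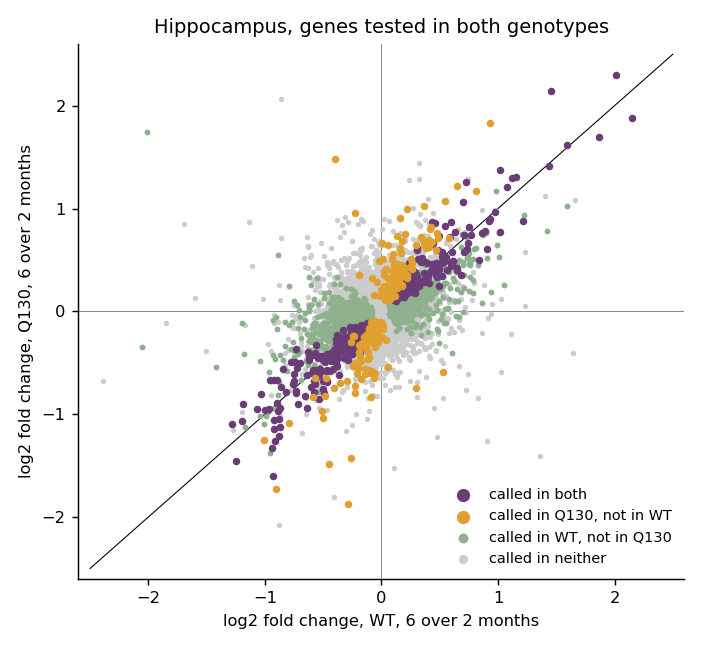
Each point is 1 gene tested in both genotypes, with the log2 fold change, 6 over 2 months, of WT rats on the horizontal axis and of Q130 rats without M3 and M5 on the vertical axis; 2 uncalled genes lie outside the axes. Of the 673 genes called in Q130 rats, 657 lie in the quadrants of equal sign.

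The named genes changed in WT rats as follows. ENSRNOG00000015159 had 1.38, 5.98 and 13.1 CPM at 6 months in WT rats (lowest, median and highest), against 0.822, 1.33 and 2.70 CPM at 2 months, a log2 change of 2.01 ± 0.43 (SE; edgeR adjusted p = 0.00448). As in Q130 rats, the WT ranges overlapped at the low end. ENSRNOG00000031211 had 3.75, 4.20 and 5.88 CPM at 6 months and 0.727, 0.985 and 1.63 CPM at 2 months in WT rats, with no overlap and a log2 change of 2.15 (adjusted p = 5.26e-12 in edgeR). ENSRNOG00000061358 did not pass in WT rats (log2 -0.91 ± 0.40 SE, edgeR adjusted p = 0.13), where it had 0.168, 0.343 and 2.19 CPM at 6 months and 1.06, 1.57 and 2.06 CPM at 2 months. ENSRNOG00000002265 had 0.537, 0.836 and 1.55 CPM at 6 months and 1.56, 1.96 and 2.67 CPM at 2 months in WT rats, a log2 change of -1.25 (edgeR adjusted p = 1.66e-05). The interaction of age and genotype for these 4 genes had adjusted p of 0.649 to 0.868 in edgeR without M3 and M5.

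The level of the called genes could be read in each library as their mean log2 CPM minus the mean of the Q130 rats at 2 months. The Q130 values describe the libraries that chose the genes. The WT values were not used to choose them. For the 289 higher genes, the lowest, median and highest values were 0.35, 0.44 and 0.49 in the 8 Q130 libraries at 6 months, against -0.04, -0.01 and 0.05 in Q130 at 2 months. In WT they were 0.31, 0.36 and 0.41 at 6 months, against 0.01, 0.03 and 0.15 at 2 months. For the 384 lower genes, they were -0.41, -0.39 and -0.33 in Q130 at 6 months, against -0.06, -0.01 and 0.07 at 2 months, and in WT -0.38, -0.35 and -0.29 at 6 months, against -0.10, -0.05 and 0.01 at 2 months. Among these libraries the ages did not overlap in either genotype, and every WT rat of 6 months stood on the same side as the Q130 rats. Of the 2 libraries left out, M5 had 0.56 for the higher genes and 0.06 for the lower genes, and M3 had 0.27 and -0.31.

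At 12 months, where age and batch change together and the 2-month rats are again the baseline, the higher genes had a median log2 difference of 0.35 at 12 months and 0.33 at 6 months. The lower genes had -0.33 at 12 months and -0.29 at 6 months. By library, Q130 rats at 12 months had values of 0.43 to 0.53 for the higher genes and -0.47 to -0.39 for the lower genes. ENSRNOG00000015159 had a median of 1.43 CPM at 2 months, 6.73 at 6 months and 12.3 at 12 months in Q130 rats, and the 12-month rats (10.8 to 13.5 CPM) lay above all but the highest of the 8 rats at 6 months. ENSRNOG00000031211 had medians of 1.27, 4.68 and 5.42 CPM, with overlap between 6 and 12 months. ENSRNOG00000061358 had medians of 1.95, 0.355 and 0.343 CPM, and all Q130 rats at 12 months were under 1 CPM (0.0997 to 0.694). WT rats at 12 months ran from 0.0761 to 2.22 CPM. The gap between low and high levels at 2 and 6 months was not seen at 12 months. Levels inside it included 0.694 CPM in a Q130 rat, and 0.843 and 0.956 CPM in WT rats. ENSRNOG00000002265 had medians of 1.89, 0.621 and 0.641 CPM. None of these differences between 6 and 12 months was tested.

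**Figure D5:**
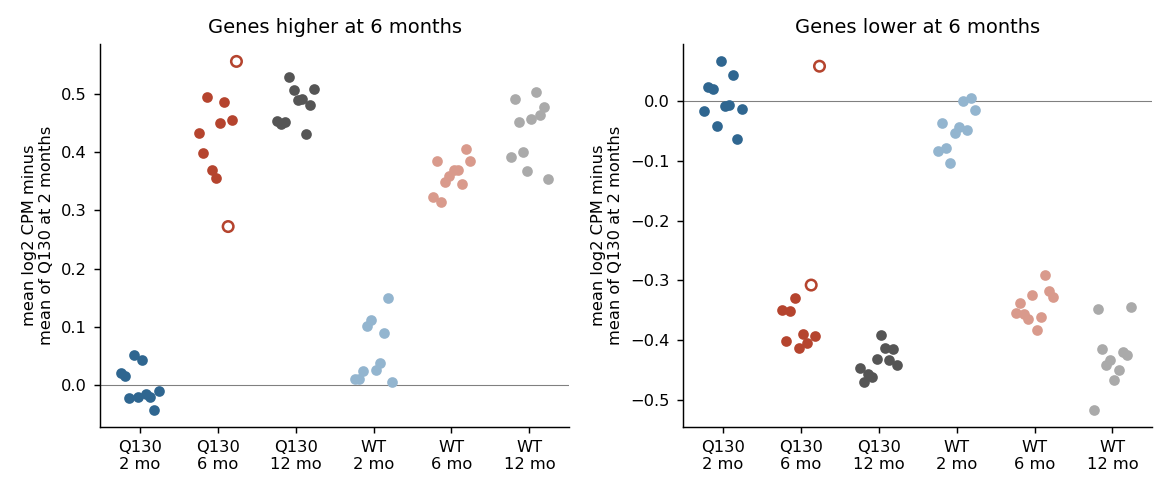
Each point is the mean log2 CPM of the 289 higher genes (left) or the 384 lower genes (right) in 1 hippocampal library, minus the mean of Q130 rats at 2 months, for Q130 and WT rats at 2, 6 and 12 months; open symbols are M3 and M5. Libraries of 6 months lie away from those of 2 months in both genotypes, except M5 for the lower genes (0.06).

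The same genes were looked up in the other tissues, which came from the same rats, so the tissues are not independent of each other. Libraries under 0.97 in their own tissue were left out. In cortex, 1378 of 15759 genes were called between 6 and 2 months (8.74%), with 3.85% higher and 4.89% lower. Of the higher genes, 268 of 283 had the same sign in cortex and 143 were called higher, with a median log2 change of 0.26. Of the lower genes, 372 of 382 had the same sign and 246 were called lower, with a median of -0.23. No gene was called in the opposite direction in cortex. The share of all tested genes with the same sign in both tissues is not given, so these sign counts have no baseline.

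In striatum, where 13 libraries could be used, 12.4% of genes were called, with 6.78% higher and 5.6% lower. Of the higher hippocampal genes, 143 were called higher and 2 lower there, and of the lower genes 147 were called lower and 1 higher. In cerebellum, with 15.1% of genes called (7.03% higher and 8.1% lower), 95 of the higher genes were called higher and 10 lower, and 209 of the lower genes were called lower and 4 higher. Median log2 changes of the higher genes were 0.29 in striatum and 0.14 in cerebellum, and those of the lower genes were -0.19 and -0.20. The difference of the change between hippocampus and cortex, tested within rats, passed for 3 of 16816 genes (0.0178%; 2 higher, 0.0119%, and 1 lower, 0.00595%) without the rats of M3 and M5, and for 0 of 16885 with all 40 libraries (587 unadjusted). The 3 genes had log2 differences, hippocampus minus cortex, of -0.32 to 0.67 and a smallest edgeR adjusted p of 0.0383. limma-voom was run with all 40 libraries only, where it also called 0 genes, with 584 unadjusted. It was not run on the libraries that gave the 3 genes. The 3 genes were not followed further.

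Among the 4 tissues, the striatum had the highest WT level at 2 months for 46.7% of the higher and 47.7% of the lower genes, against 29.1% of all genes tested. The hippocampus was the tissue of highest level for 16.6% of the higher and 10.4% of the lower genes, against 18.5% of all. These shares are a description, and 7 striatal libraries set the level of that tissue against 10 for each other tissue.

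Of 55 genes enriched in the hippocampus itself, 1 was called higher and 1 lower without M3 and M5 (3.64%, beside 4.25% of all genes tested), and the median log2 change was 0.05. Of 82 striatum-enriched genes, 5 were higher and 2 lower (8.54%), with a median of -0.01. Of 189 cerebellum-enriched genes, 6 were higher and 9 lower (7.94%), with a median of -0.05. These shares were not tested against that of all genes. Cortex-enriched genes, which can show how much adjoining cortex a dissection held, were not called (0 of 40), but 33 of the 40 had a lower estimate at 6 months, with a median log2 change of -0.22. The mean of cortex-enriched genes was -0.34 to 0.01 log2 CPM at 6 months, with a median of -0.16, and -0.58 to 0.51 log2 CPM at 2 months, with a median of 0.04. The 6-month libraries lay inside the range of the 2-month libraries. The part of cortical tissue in the called genes was not tested.

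With M5 among the libraries the picture of these groups was different. Striatum-enriched genes then had a median log2 change of 0.69, with higher estimates for 78 of 81 genes, and none was called. Their mean was 4.19 log2 CPM in M5 alone and at most 0.89 in the other 6-month libraries. Hippocampus-enriched genes had a median of -0.11 with M5 and M3, and 0.05 without them, so the direction of this group turned.

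The counts and TPM values together give a relative effective length of each gene. Its median, relative to all tested genes, was 1.28 for the higher and 1.17 for the lower genes. Length was also tied to fold changes across genes, which are not independent replicates: Spearman's rho was 0.10 in Q130 rats without M3 and M5, -0.12 with all libraries and -0.23 in WT rats. The sign thus turned with the libraries included. Per library, the rho of length had a median of 0.09 in the 8 kept Q130 libraries at 6 months and 0.10 at 2 months. With M3 and M5 the median at 6 months was 0.01. In WT rats it was 0.02 at 6 months and 0.15 at 2 months. The part of length in the called genes was not tested.

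Females and males were set against each other by the interaction of age and sex. In edgeR it passed for 0 of 16115 genes without M3 and M5, with 593 at an unadjusted p under 0.05 (3.68%), and for 0 of 15911 with all libraries, with 1132 unadjusted. limma-voom gave 0 calls and 1093 unadjusted with all libraries. Tested alone, the 5 females of each age gave 66 calls, 17 higher and 49 lower. The 3 males kept at 6 months and the 5 at 2 months gave 424 calls, 206 higher and 218 lower, and with M3 and M5 the males gave 2 calls. The interaction passed for no gene, so a difference between the sexes was not shown.

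Levels of most called genes followed the rat only in small part. In 16 Q130 rats with usable hippocampus, cortex and cerebellum libraries, the share of the variance left after age, sex and tissue that went with the rat had a median of 0.13 for the higher genes and 0.06 for the lower genes, against 0.02 for all 15495 genes. A share over 0.8 was found for 3 higher genes (1.04%) and 1 lower gene (0.263%), against 0.394% of all genes. For the named genes it was 0.44 for ENSRNOG00000015159, 0.48 for ENSRNOG00000031211, 0.62 for ENSRNOG00000061358 and 0.14 for ENSRNOG00000002265. These shares describe how alike the tissues of a rat were, and no test was made of them.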

How the data were processed

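RNA was sequenced from flash-frozen tissue by Illumina protocols on enriched RNA subfractions, per the labels' protocols. Which aligner, counter and genome build were used is not given in the sources used here. Estimated counts (expected counts) were deposited by the authors for 32883 genes, which were rounded to whole numbers. A second deposited table is named for FPKM, but every column sums to the total of a TPM scale, so the values that the authors deposited there are taken as TPM and used for levels per length. Of 252 columns, 24 striatal ones matched more than 1 sample and were not used.

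Q130 hippocampus at 6 and 2 months was compared with edgeR 4.0.16 in R 4.3.3: filterByExpr, TMM, sex as a covariate, the robust quasi-likelihood F test and Benjamini-Hochberg adjustment over all genes tested, with calls under 0.05. Standard errors are of the log2 fold changes, computed as the change divided by the square root of F. Log2 CPM used a prior count of 2 and, for correlations, genes with a mean of at least 10 counts. Interactions with genotype and sex, and with tissue within rats, used the same test. limma 3.58.1 and DESeq2 1.42.0 served as alternatives, with other scalings and filters, single libraries left out, and each sex alone. The test was tried on simulated data with known changes. The simulated libraries all had the same spread and none stood apart, so the trial does not cover the fit with M3 and M5.

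The members and lists were chosen with earlier results of these data known. No pair of replicates agreed within counting noise: the squared difference was at least 3.53 times that of counting. Replicates are separate rats. Named genes were the first 2 in each direction by the rule given with them; planned gene lists, written as symbols, could not be matched. The ages and batches at 12 months coincide. Genes sharing reads with near-identical copies were not identified, so a count may hold reads of a copy.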

Additional observations from a re-analysis of the deposited data

Results flagged for a closer look

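In 5 of 32 groups of libraries tested, 1 library lay far from the rest of its group by Dixon's criterion. Chance alone gives this in about 1 of 20 independent groups. The 32 groups share libraries, so the 5 flags cannot be set against that rate. The median correlation is also the measure that set M3 and M5 apart, and the genes lower at 6 months were called without M5. Among the Q130 rats of 6 months, M5 had a median correlation of 0.929 with other hippocampal libraries, with the nearest, M3, at 0.960. M5 also had a mean of 0.0576 log2 units for the genes lower at 6 months, with the nearest library at -0.308. M3 had the highest total count, 43.7 M of counts, with the nearest library at 37.1 M. Among the Q130 rats of 2 months, F5 had a median correlation of 0.971, with the nearest at 0.985, and it lay at 61.3 on the first principal component of the 18 libraries, where the others ran from -16.3 to 16.8. For ENSRNOG00000002265, M5 of the WT rats at 6 months had 1.55 CPM, with the nearest at 1.01 CPM. The cause of each was not tested.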

How the results depend on the processing

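The 159 genes called with all 20 libraries became 420 by DESeq2 (266 higher), 632 when both genotypes shared the estimate of spread (408 higher), 1582 by limma-voom with library quality weights (802 higher), 66 in females alone and 2 in males alone. The 673 genes called without M3 and M5 became 1037 by DESeq2 (487 higher), 1587 with quality weights (786 higher), 66 in females alone and 424 in males alone. Leaving out single libraries gave 102 to 484 calls from all libraries, with 484 without M5 and 102, 104 and 104 without F3 at 6 months and without M3 or M5 at 2 months, and 435 (without M4 at 6 months) to 1194 (without F5 at 2 months) calls from the 18. The hippocampus and cortex difference had 3 calls without the libraries under 0.97. Other scaling, no filter on low counts, plain limma-voom and a correlation within identifier numbers moved the counts by less than 1.5 times, and WT had 2299 calls without its own M3 and M5 of 6 months.

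With the replicate number as a block (replicate block), 31 genes were called with all libraries and 263 without M3 and M5. Deviations of same-numbered rats correlated at -0.13 to 0.12 over 8 pairs, 2 of them over 0.1, and 1 matched best with its own number, so the numbers did not pair the rats. No named gene changed direction under any setting. ENSRNOG00000061358 kept its call in 12 of 28 settings without M3 and M5, ENSRNOG00000015159 and ENSRNOG00000002265 in 27 and ENSRNOG00000031211 in all 28. The cause of these changes was not tested. Genes under 1 CPM were called only at large changes, which limits what can be said of them.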
